A study of Rattus norvegicus with 12 samples.

Results

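The myogenic transcription factors described here were 10 genes: the 4 myogenic regulatory factors Myog, Myod1, Myf5 and Myf6, the paired box factors Pax3 and Pax7, and the 4 members of the myocyte enhancer factor 2 family, Mef2a, Mef2b, Mef2c and Mef2d. They were chosen by name, and every probe that the array's gene name column assigned to them was taken. This gave 12 probes, 2 each for Myf5 and Pax3 and 1 for each other gene, among 30367 probes for 21885 gene names. RNA came from neuron-enriched cultures of cerebellum of Sprague-Dawley rats taken at 1 day of age and kept to 16 days in vitro (DIV), and was measured on 1-colour oligonucleotide arrays. The control group held 6 cultures that received the solvent alone, and the ACE group held 6 cultures that received 1 µM acetamiprid (ACE), a neonicotinoid insecticide that acts on nicotinic acetylcholine receptors, from DIV 2 to DIV 16. Both groups contained 0.001% dimethyl sulfoxide. The 6 pairs came from 6 independent culture experiments, each made from the pooled cerebellar cells of a single litter, so the pairs were the replicates. The question was whether the control versus ACE (CvA) contrast differed for these factors in cultures prepared from brain.

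The myogenic regulatory factors are basic helix-loop-helix proteins that turn on muscle genes by binding E-boxes as heterodimers with E proteins. Myod1 and Myf5 commit cells to the muscle lineage, Myog drives the differentiation of myoblasts into fibres, and Myf6 acts mainly in later differentiation. Pax3 and Pax7 mark muscle progenitors and act upstream of them, but both also pattern the dorsal neural tube and neural crest. MEF2 proteins bind A/T-rich sites together with the myogenic factors in muscle, and in neurons they serve activity-dependent transcription, with Mef2a and Mef2d known from cerebellar granule neurons.

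Myog had the largest CvA difference of the tested members, and its promoter holds the kinds of site through which the family acts. The 250 bases before its RefSeq start, chr13:48297226-48297475 on the plus strand of GRCr8, are shown with capitals marking E-boxes and the MEF2 core.
Myog promoter: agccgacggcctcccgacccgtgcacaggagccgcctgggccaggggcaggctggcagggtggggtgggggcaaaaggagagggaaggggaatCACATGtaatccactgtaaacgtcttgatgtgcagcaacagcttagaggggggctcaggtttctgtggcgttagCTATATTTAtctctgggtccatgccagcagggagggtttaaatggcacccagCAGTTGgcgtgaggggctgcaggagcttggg
The E-box was searched as CANNTG, which reads the same on both strands. The MEF2 core was searched on both strands as TA, 4 bases of A or T, and TA, with a pyrimidine before it, a form chosen to take in the site known in this promoter. The Myog window held 2 E-boxes, 157 and 31 bases before the start, and the MEF2 core 83 bases before it, with no overlap between them. Of 33469 rat promoter windows of this length, 65.5% held an E-box, 30.6% held at least 2 and 7.51% held the MEF2 core. Windows were found for 8 of the 10 members, and 4 of the 8 held an E-box and 3 held the MEF2 core (Myog, Myf6 and Mef2a). These matches describe letters in the windows and nothing about binding in the cultures.

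The probes of Pax3 and Myf5 read differently, so bases 31 to 60 of each are given, with a TG repeat and a polyadenylation signal (AATAAA) in capitals.
Pax3 probe 1: ttccaTGTGTGTGTGTGTGTGTGTGTGTGt
Pax3 probe 2: agaagaggaggaggcggatttagaaaggaa
Myf5 probe 1: agttccagacttatctatcacgtattatga
Myf5 probe 2: ttattcacAATAAAatgcttaaaggaggtg
As the files place them, Pax3 probe 1 lies at chr9:77477823-77477882 and Pax3 probe 2 at chr9:77572117-77572176, both on the minus strand of rn4 and 94235 bases apart. Pax3 probe 1 holds 12 copies of TG in a row, a run that only 4 of the 30367 probes (0.0132%) match or exceed, itself included. Myf5 probe 1 (chr7:46190314-46190373, minus strand) and Myf5 probe 2 (chr7:46189256-46189315, minus strand) are separated by 999 bases, and the Myf6 probe (chr7:46200071-46200130, minus strand) lies 9698 bases beyond Myf5 probe 1. The share of G and C was 48.3% in Myf5 probe 1, 28.3% in Myf5 probe 2 and 23.3% in the Myf6 probe, against a median of 45.0% over all probes. Exon and intron annotation of this build was not used here.

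Detection differed sharply within the family. Well above background is the scanner software's own call that a spot exceeds its local background, and it was met on all 12 arrays by 8 of the 12 probes: Myog, Myf5 probe 1, both Pax3 probes and the 4 Mef2 probes. The Myf6 probe met it on 0 of 12 arrays. Myod1 met it on 3 control arrays and 1 ACE array, Pax7 on 4 and 3 (1 of the 4 being a spot left out as an outlier), and Myf5 probe 2 on 1 control array and 0 ACE arrays. These 4 probes also missed the filter on dim probes, so 8 probes of 7 genes were tested. All levels below are normalised signal on the log2 scale, and levels of different probes are not compared with each other.

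Markers of the labelled tissue were present: all tested probes of the granule cell (5 probes), Purkinje cell (5), astrocyte (10), oligodendrocyte (6) and microglia (7) lists were well above background on all 12 arrays. The same held for 3 of 4 tested pan-neuronal probes, 2 of 7 of the GABAergic interneuron lineage and 2 of 7 of skeletal muscle. It also held for 7 of 7 smooth muscle, 4 of 6 fibroblast and 3 of 5 cardiac muscle probes. The granule cell marker Slc17a7, a vesicular glutamate transporter, was well above background on 0 control and 2 ACE arrays and was not tested. The control arrays of pairs 1 and 2 and the ACE array of pair 1 stood apart by their high signal of muscle genes, and the Myog difference, the skeletal muscle lists with their named targets and the correlations are also given without pairs 1 and 2. The 75th percentile of the array signal ranged from 1803 to 4384 intensity units, and with 6 pairs the precision of each value is set by their number.

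**Figure D1:**
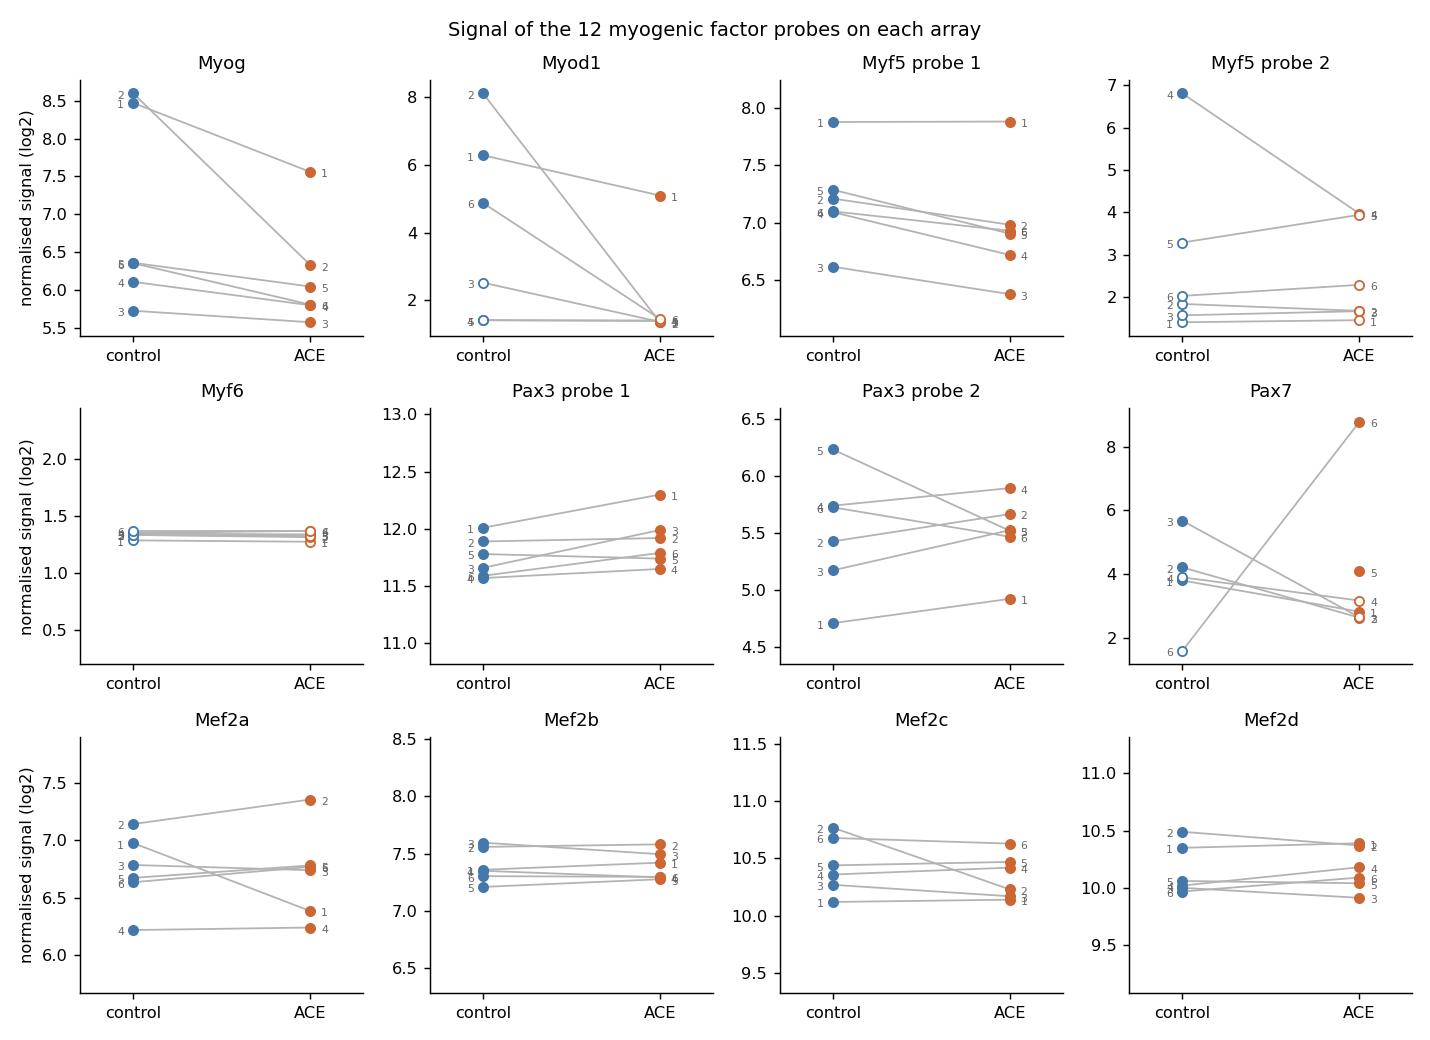
Normalised signal (log2) of the 12 probes on each array, control at left and ACE at right, with a line joining the arrays of a pair and the pair number beside each point. Filled points were well above background and open points were not; axes differ between panels and span at least 2 log2 units. Myog was lower in ACE in all 6 pairs, Myod1 was above background mainly on control arrays, and the Mef2 probes stayed near level.

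No member passed the adjusted threshold in CvA. With limma and Benjamini-Hochberg adjustment over 23796 probes, 0 of the 8 member probes had an adjusted p under 0.05, against 0% of all tested probes, and the lowest adjusted p of a member was 0.166. An unadjusted limma p under 0.05 was met by 3 of the 8 probes, Myog and Myf5 probe 1 in the lower direction and Pax3 probe 1 in the higher direction. The background for this count was 16.6% of all tested probes, 9.73% lower and 6.90% higher. Only Myog had the same direction in all 6 pairs, 1 of 8 probes beside 11.6% of all tested probes. The latter share was close to the background, and 3 of 8 was above it, a count too small to read further. The median size of the difference was 0.060 for the 8 member probes and 0.062 for all tested probes, with median differences of -0.014 and -0.0050.

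**Figure D2:**
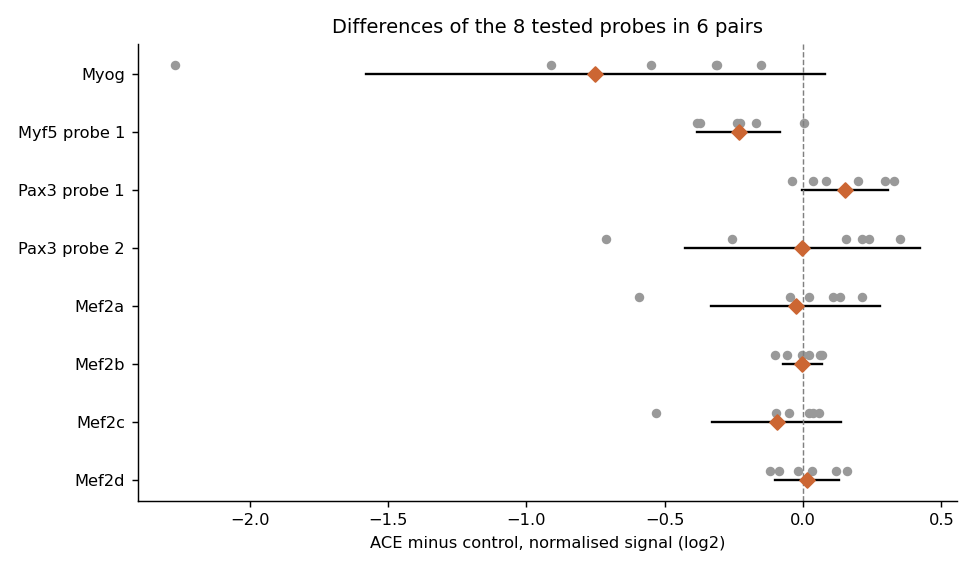
ACE minus control (log2) for the 8 tested probes: grey points are the 6 pairs, diamonds the mean difference and bars its 95% interval from the spread of that probe's pairs. Only the Myf5 probe 1 bar leaves out 0, and the Myog bar runs from -1.58 to 0.078 with pair 2 (-2.27) apart from the other pairs.

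Myog, the differentiation factor of skeletal muscle, had the largest difference of the tested members and the only one of at least 1.5-fold, although with normexp background correction it was -0.50, short of that size. Its probe lies at chr13:47246094-47246153 on the plus strand of rn4. Control levels were 8.47, 8.60, 5.72, 6.11, 6.36 and 6.35 in pairs 1 to 6. ACE levels were 7.56, 6.33, 5.57, 5.80, 6.04 and 5.80. The control arrays of pairs 1 and 2 and the ACE array of pair 1 stood above the other 9, and the groups overlapped. The pair differences were -0.91, -2.27, -0.15, -0.31, -0.31 and -0.55, around group means of 6.94 ± 1.26 for control and 6.18 ± 0.72 for ACE (SD over 6 arrays). The mean difference was -0.75 ± 0.28 (SE), 1.68-fold lower in ACE (limma, unadjusted p of 0.0355, adjusted p of 0.268; exact permutation of the pair signs, p = 0.031). The latter p, which is two-sided, is the smallest that 6 pairs allow. Myog is on the list of genes that the study selected on these same RNA samples, so its direction here is no independent evidence.

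The size of the Myog difference rested largely on pair 2. Without that pair the difference was -0.45 (adjusted limma p of 0.335), and without pairs 1 and 2, a choice made after the data were seen, it was -0.33 (unadjusted limma p of 0.00862, adjusted 0.362), lower in 4 of 4 pairs. By scan batch, the difference was -0.91, -2.27 and -0.15 in the 3 batches of 1 pair and -0.39 in the batch of 3 pairs. Pair 1 was extracted with another software version than the other 5 pairs. Every slide carried control in position 1 and ACE in position 3, so position and exposure cannot be told apart.

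Myod1, a lineage determination factor, was measured at chr1:96912833-96912892, plus strand, and was not tested. It was well above background on the control arrays of pairs 1, 2 and 6, at 6.29, 8.11 and 4.88, and on the ACE array of pair 1 at 5.10. The other 3 control arrays read 1.41 to 2.52 and the other 5 ACE arrays 1.35 to 1.45, values near the floor that have no order. Thus 2 of the 3 cultures with a Myod1 signal in control had no signal well above background in ACE, and in pair 1 the ACE value was lower by 1.19. The arrays with a Myod1 signal were those with the highest mean level of the muscle target genes below.

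Myf5, the other determination factor, gave a steady reading with its first probe. Control levels ranged from 6.61 to 7.88 (median 7.15) and ACE levels from 6.37 to 7.88 (median 6.92), so the groups overlapped. The pair differences were 0.0044, -0.23, -0.24, -0.37, -0.38 and -0.17. The mean difference was -0.23 ± 0.055 (SE), negative in 5 of the 6 pairs (limma, p = 0.00483 unadjusted and 0.166 adjusted; exact sign-flip permutation, p = 0.0625). The 95% interval was -0.38 to -0.081, and with normexp background correction the difference was -0.15. The second probe did not give the same picture: it was well above background on the control array of pair 4 alone, at 6.81, and its other values ran from 1.40 to 3.28 in control and 1.45 to 3.97 in ACE. Since both probes carry the same transcript accession in the files, the Myf5 level is uncertain. Myf6, their neighbour on chromosome 7, read 1.29 to 1.37 in control and 1.28 to 1.37 in ACE and was well above background on no array.

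Pax3, a progenitor and neural crest factor, likewise depended on the probe. The first probe read 12.01, 11.89, 11.66, 11.57, 11.78 and 11.59 in control and 12.30, 11.92, 11.99, 11.65, 11.74 and 11.79 in ACE. ACE was the higher in 5 of 6 pairs, with overlapping groups. The mean difference was 0.15 ± 0.057 (SE; limma, p = 0.0344 unadjusted and 0.265 adjusted; exact sign-flip permutation, p = 0.09375). The second probe ranged from 4.71 to 6.23 in control and from 4.92 to 5.89 in ACE, and its difference was -0.0018 ± 0.147 (SE; adjusted limma p of 0.995; 95% interval of -0.43 to 0.42). The second probe was also the higher in ACE in 4 of 6 pairs, at 0.21, 0.24, 0.35 and 0.15 in pairs 1 to 4, with -0.71 in pair 5 and -0.26 in pair 6. Without pair 5 its difference was 0.14 and without pairs 1 and 2 it was -0.12. The Pax3 probes correlated at r = -0.587 over the 12 arrays and at -0.088 over the 8 arrays of pairs 3 to 6.

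Pax7, the satellite cell factor (chr5:158547811-158547870, minus strand), was not tested. Control levels were 3.80, 4.21, 5.67, 3.90 and 1.59 in pairs 1, 2, 3, 4 and 6, the array of pair 5 being missing because its spot was marked as an outlier. ACE levels were 2.82, 2.63, 2.64, 3.17, 4.08 and 8.78. The pair 6 array in ACE stood above all others, while ACE was the lower in pairs 1 to 4, and the pairs had no common direction. The ACE values of pairs 2, 3 and 4 and the control values of pairs 4 and 6 were not well above background. The order within pair 4 thus has no meaning.

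The MEF2 factors were detected on every array and differed little between the groups. Mef2c, probed by 10 spots (chr2:12329521-12329580, minus strand), had levels of 10.12 to 10.77 in control and 10.14 to 10.63 in ACE. Its difference was -0.094 ± 0.082 (SE; adjusted limma p of 0.585), with pair 2 at -0.53, and without pair 2 it was -0.0066. Mef2d (chr2:180246846-180246905, plus strand) ranged from 9.97 to 10.49 in control and from 9.91 to 10.39 in ACE, with a difference of 0.015 ± 0.045 (SE; adjusted limma p of 0.886). Its 95% interval of -0.10 to 0.13 left out a change of 1.5-fold, which is 0.585 on the log2 scale.

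Mef2b (chr16:19736039-19736098, minus strand) had the smallest spread of the tested members, with group means of 7.40 ± 0.15 for control and 7.39 ± 0.13 for ACE (SD over 6 arrays). Its difference was -0.0019 ± 0.032 (SE; adjusted limma p of 0.980) with a 95% interval of -0.072 to 0.068. Mef2a, whose probe has no position in the files, ranged from 6.22 to 7.14 in control and from 6.24 to 7.36 in ACE. Its difference was -0.027 ± 0.107 (SE; adjusted limma p of 0.918). Pair 1 (-0.59) stood against the other pairs (-0.046 to 0.21), and without pair 1 the difference was 0.087. The groups overlapped for all 4 MEF2 probes, and their intervals left out a 1.5-fold change in either direction.

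Genes that the myogenic factors are known to activate in skeletal muscle had negative mean differences, none of which passed the adjusted threshold and much of which rested on pairs 1, 2 and 6. Of 24 such genes, 22 were on the array and 18 were tested with 19 probes. All 19 probes had a negative mean difference, with a median of -0.62 (range -3.08 to -0.12), whereas 52.2% of all tested probes were lower and their median was -0.0050. The lowest adjusted limma p was 0.238 (0 of 19 called). At an unadjusted limma p under 0.05, 2 of 19 were lower, near the 9.73% of all tested probes that were. In all 6 pairs 3 of 19 were lower, while 11.6% of all tested probes had a common direction, higher or lower. The share of all tested probes lower in all 6 pairs was not computed, so the latter count has no like background. The probes move together within a culture, so they are not 19 independent readings. The named genes of this list were Mylpf, a fast myosin light chain (-2.18 ± 1.09 SE, adjusted limma p of 0.367), Acta1, skeletal actin (-1.45 ± 0.71, 0.361), Myl4, an embryonic myosin light chain (-1.37 ± 0.73, 0.390) and Chrng, the fetal acetylcholine receptor subunit (-1.18 ± 0.67, 0.417). Mylpf was lower in 4 of 6 pairs and the other 3 in 5 of 6. Pair 2 carried the widest values, at -7.42 for Mylpf, -4.96 for Acta1, -5.03 for Myl4 and -4.84 for Chrng, and without it the mean differences were -1.13, -0.75, -0.63 and -0.45. Over pairs 3 to 6 they were -1.17, -0.69, -0.55 and -0.41. Mylpf was lower in 2 of these 4 pairs and the others in 3 of 4. Pair 6 carried the widest of these values, at -4.24 for Mylpf, -2.16 for Acta1, -2.30 for Myl4 and -1.36 for Chrng. In pairs 3 to 5 the values ran from -0.86 to 0.31 for Mylpf and from -1.19 to 0.89 for Acta1. They ran from -0.15 to 0.29 for Myl4 and from -0.33 to 0.10 for Chrng.

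These differences were uneven across the cultures. The mean over the 19 target probes was 10.50, 11.13, 7.53, 7.17, 7.35 and 8.79 in control and 9.79, 7.61, 7.24, 7.27, 7.40 and 7.04 in ACE for pairs 1 to 6. Pairs 2 and 6 carried differences of -3.52 and -1.76, pair 1 of -0.71 and pair 3 of -0.29, whereas pairs 4 and 5 were slightly higher in ACE, at 0.11 and 0.050. Over pairs 3 to 6 alone, 14 of the 19 target probes were lower, with a median of -0.27, beside 52.0% of all tested probes. Myog was lower in all 6 pairs, including pairs 4 and 5.

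The skeletal muscle marker list shares no gene with the targets. All 7 tested marker probes had a negative mean difference (median -0.80), 0 of 7 passed the adjusted threshold and 1 had an unadjusted limma p under 0.05. That was near the 9.73% of all tested probes that were lower at this threshold. Over pairs 3 to 6, 6 of 7 were lower, with a median of -0.57. The list mean differed by -0.059, -2.85, -0.35, 0.36, -0.056 and -1.60 in pairs 1 to 6, so it was most negative in pairs 2 and 6, and pair 4 went the other way. The summed signal of the tested markers ranged from 290.4 to 1933 intensity units in control and from 252.6 to 883.9 in ACE. Of the defining genes, Actn3 and Myom1 were well above background on all 12 arrays, Cacna1s on 5 control and 6 ACE arrays, Neb on 4 and 5 and Actn2 on 4 and 3. Ckmt2 reached it on 4 and 2, Myom2 and Myoz1 on 2 and 2, and no probe of Ttn or Ryr1 on more than 3 and 1. In such bulk RNA fewer muscle cells and less muscle RNA per cell cannot be told apart, and the part of a varying muscle cell content in the Myog values was not tested.

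Of the marker lists of other cell types, 0 probes passed the adjusted threshold, and some lists had values mostly of one sign. All 4 tested pan-neuronal probes were higher in ACE (median 0.15), and their mean differed by 0.32, 0.31, 0.12, 0.026, -0.021 and 0.37 in pairs 1 to 6, so it was most positive in pairs 1, 2 and 6, where the muscle targets were most negative. Of 7 GABAergic interneuron lineage probes 6 were higher (median 0.15), but their mean differed most in pairs 4 and 5 (0.43 and 0.28). All 5 cardiac muscle probes (median -0.072) and 9 of 10 astrocyte probes (median -0.072) were lower. Of 5 granule cell probes 2 were higher and 3 lower, and their mean differed by 0.461 and 0.284 in pairs 1 and 2, where the muscle signal was high, and by -0.133, -0.097, -0.178 and 0.010 in pairs 3 to 6. Over pairs 3 to 6 alone 4 of the 5 were lower (median -0.11). The other lists were mixed in sign, with 3 higher and 2 lower for Purkinje cells, 3 and 3 each for oligodendrocytes and fibroblasts and 2 and 5 for smooth muscle. Of 7 microglia probes 5 were higher and 2 lower, and 2 of the former and 1 of the latter had an unadjusted limma p under 0.05, more than in any other marker list (6.90% and 9.73% of all tested probes did). The part of these shifts in the Myog and muscle target values was not tested.

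**Figure D3:**
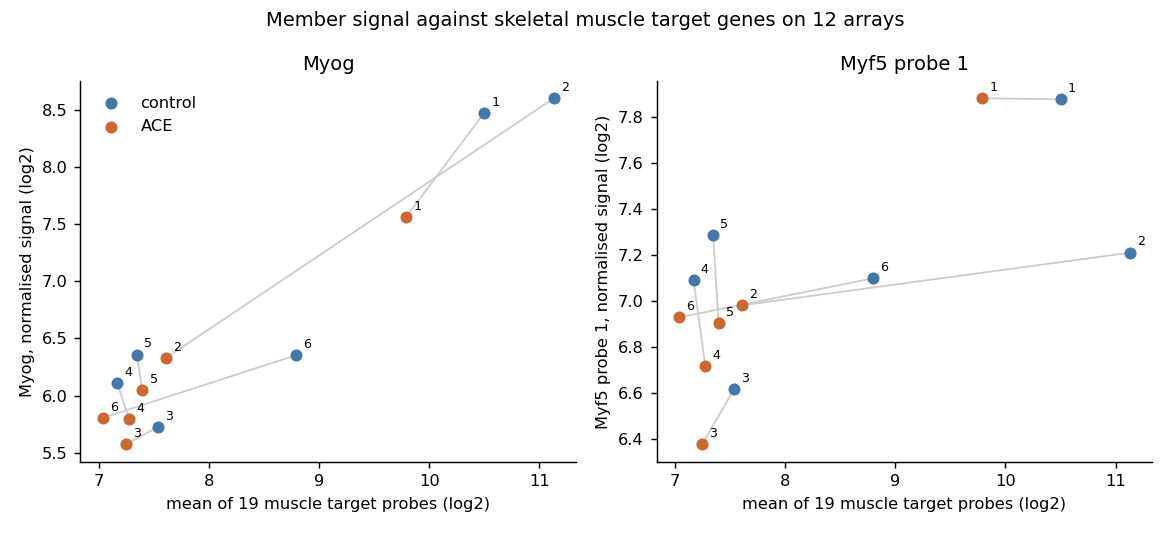
Signal (log2) of Myog (left) and Myf5 probe 1 (right) against the mean signal of 19 probes of skeletal muscle target genes on the 12 arrays, with pair numbers beside the points and grey lines joining the arrays of a pair. Myog followed the targets where they were high (control 1, control 2 and ACE 1), with r = 0.958 over 12 arrays and 0.522 over the 8 arrays of pairs 3 to 6, while Myf5 probe 1 followed them less closely (0.695 and 0.244).

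Over the 12 arrays, which share pairs and a common normalisation, Myog correlated with the mean of the target probes at r = 0.958. Over the 8 arrays of pairs 3 to 6 it was 0.522, so the likeness over all arrays rested in part on the high cultures of pairs 1 and 2. The 10 genes most like Myog by Pearson r were Actc1 (0.974), Mb (0.972), Tnni2 (0.971), Cacng1 (0.969), Unc45b (0.966), Usp13 (0.956), Ankrd1 (0.954), Lmod2 (0.953), Casq1 (0.951) and Myl4 (0.948). The 99th percentile over all tested named probes was 0.865. Over the 8 arrays of pairs 3 to 6 the same genes correlated with Myog at 0.491 (Myl4) to 0.945 (Usp13), and of them Usp13 alone was above the 99th percentile there, which was 0.860. The likeness of the others at that rank thus rested on pairs 1 and 2. Of these 10, Actc1 encodes a cardiac and fetal actin, Mb myoglobin, Tnni2 a fast troponin, Cacng1 a muscle calcium channel subunit and Unc45b a myosin chaperone.

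Among the members, Mef2d correlated with Myog at 0.809 over 12 arrays and at 0.038 over the 8 arrays of pairs 3 to 6, and Mef2c at 0.013 and 0.589. Myf5 probe 1 went the other way from Mef2d, at 0.788 over 12 arrays and 0.923 over 8. The genes most like Myf5 probe 1 were Hand1 (0.990), LOC100912016 (0.990), Kcnh3 (0.988), Zfp39 (0.982) and Tspear (0.982), none of them on the skeletal muscle lists. For Mef2c the gene most alike was the nicotinic receptor subunit Chrna5 (0.972), followed by RGD1564719 (0.917). For the others the leading genes were Cyb5r1 for Pax3 probe 1 (0.933), Cwc22 for Mef2a (0.951), Ncoa3 for Mef2b (0.974) and Cbx8 for Mef2d (0.962). Over the 8 arrays of pairs 3 to 6 these were 0.957 to 0.988 for the 5 genes of Myf5 probe 1. They were 0.953 for Chrna5, 0.970 for RGD1564719, 0.892 for Cyb5r1, 0.979 for Cwc22, 0.986 for Ncoa3 and 0.817 for Cbx8. The 99th percentile over all tested named probes was 0.943 over 12 arrays and 0.915 over 8 for Myf5 probe 1. For Mef2c it was 0.747 and 0.941, for Pax3 probe 1 0.791 and 0.765, and for Mef2a 0.777 and 0.912. For Mef2b it was 0.871 and 0.954, and for Mef2d 0.868 and 0.769.

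The partners and inhibitors of the myogenic factors had a median difference near 0, with members on both sides of it. Of 13 tested probes for E proteins and their inhibitors, 0 passed the adjusted threshold, 1 was higher and 1 lower at an unadjusted limma p under 0.05 (6.90% and 9.73% of all tested probes were), and the median difference was -0.030. Hes1, a Notch target that represses Myod1, had a difference of 0.17 ± 0.064 (SE; adjusted limma p of 0.265), higher in 5 of 6 pairs. Msc, an inhibitor that competes for E-boxes, had 0.17 ± 0.13 (adjusted 0.545; 0.28 without pair 4), Hey1 -0.083 ± 0.040 (0.351) and Id2, which sequesters E proteins, -0.068 ± 0.042 (0.447). Of 6 tested probes for upstream regulators of myogenesis, 0 met either threshold and the median difference was 0.020. Eya2, a coactivator in muscle progenitors, had -0.094 ± 0.050 (SE; adjusted limma p of 0.390). The widest values of these lists, picked out after they were seen, were those of dim probes: Lbx1 at 0.57 ± 0.26 (SE; adjusted limma p of 0.331), Pitx3 at -0.53 ± 0.34 (0.468) and the inhibitor Mdfi at -0.40 ± 0.36 (0.589). Single pairs carried much of them: without pair 5 (1.56) Lbx1 was at 0.37, without pair 6 (-2.18) Pitx3 was at -0.20, and without pair 4 (-2.05) Mdfi was at -0.074.

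The lists around MEF2 and the Pax factors had medians near 0 over the 6 pairs. Of 8 probes for MEF2 cofactors and kinases, 0 passed the adjusted threshold, 2 were higher and 1 lower at an unadjusted limma p under 0.05 (6.90% and 9.73% of all tested probes were), and the median was -0.016. Over pairs 3 to 6 alone the median was -0.13, with 6 of 8 probes lower. The mean of the list differed by 0.39 in pair 2 and by -0.26, -0.083 and -0.14 in pairs 4 to 6. The pair 2 value rested largely on the dim Hdac9 probe, at 2.68 in that pair and -0.24 on average without it. Hdac5, a class IIa deacetylase that represses MEF2, had -0.19 ± 0.068 (SE; adjusted limma p of 0.258), Cabin1, another MEF2 repressor, -0.18 ± 0.12 (0.487), Hdac7 -0.11 ± 0.061 (0.401) and Mamstr, a MEF2 coactivator, 0.11 ± 0.038 (0.231), higher in 6 of 6 pairs. The Cabin1 value rested on pair 4 (-0.84), without which it was -0.045, and Hdac7 was -0.065 without pair 6. A second Mamstr probe had 0.0017, so its probes did not show the same difference. Of 9 probes for neuronal MEF2 targets, 0 met either threshold, with a median of 0.017 and values for Homer1 (0.047), Jun (0.045), Kcna1 (0.055) and Pcdh17, whose 2 probes went opposite ways (-0.077 and 0.069). Of 8 probes for neural crest partners of Pax3 and Pax7, 0 passed the adjusted threshold and 1 was lower at the unadjusted one (9.73% of all tested probes were), with a median of -0.024 (-0.079 over pairs 3 to 6) and values for Tfap2a (0.062; 0.11 without pair 6), Snai2 (-0.034; 0.0091 without pair 6) and Msx2. Of the 2 Msx2 probes, the one that met the unadjusted threshold read -0.096 (limma p of 0.0162 unadjusted and 0.214 adjusted), and the other, with the wider difference, read -0.11 (0.0563 and 0.312). The 3 Mitf probes read -0.080, -0.015 and 0.044.

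**Figure D4:**
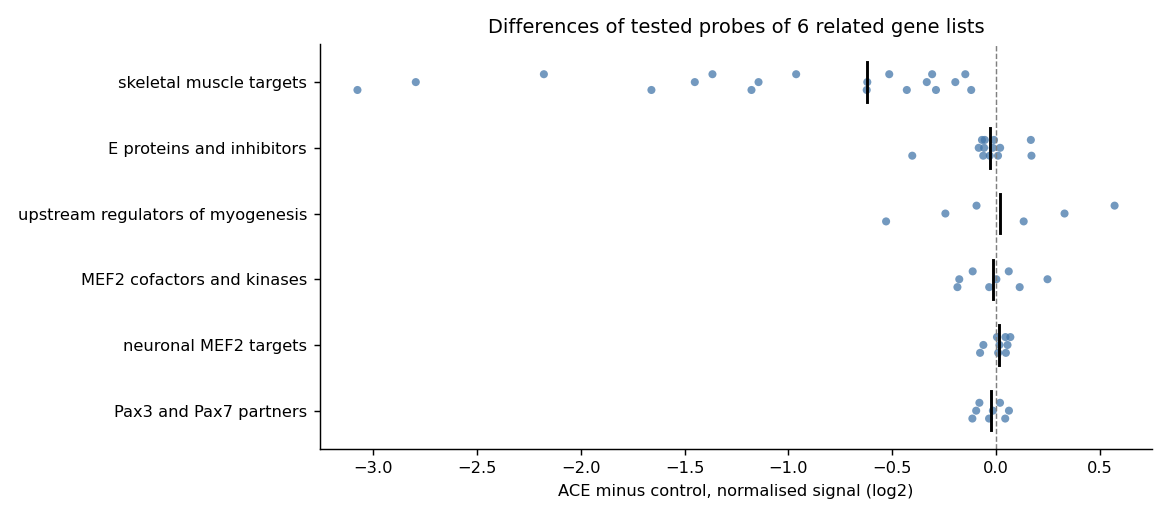
Mean ACE minus control difference (log2) of each tested probe of the 6 gene lists around the myogenic factors, 1 point per probe, with a black bar at the list median. The 19 muscle target probes all lie below 0, while the medians of the other 5 lists lie between -0.030 and 0.020, with single probes on both sides of 0.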

How the data were processed

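RNA of 6 control and 6 ACE cultures was measured on 12 1-colour (Cy3) arrays. Per the file headers, spot intensity was extracted by the authors with Agilent Feature Extraction 11.0.1.1 on the 2 arrays of pair 1 and 11.5.1.1 on the other 10, which subtracts background and does not scale between arrays. A value table on the log2 scale, deposited alongside and described as quantile normalised and centred per probe, correlated with the values computed here at 0.997 to 0.999 per array and served as an alternative.

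Control spots were left out, outlier spots were set to missing (447 probe values), and log2 processed intensity was quantile normalised before spots of a probe were averaged. Probes above the 20th percentile of their array on at least 7 of 12 arrays, with at least 4 complete pairs, were tested (23796, of which 23580 had all 6 pairs). Saturated gene spots numbered 0. Each probe was fitted with limma 3.58.1 in R 4.3.3 with the pair as a block, two-sided, with Benjamini-Hochberg adjustment at 0.05 over all tested probes. Single members also had an exact permutation test that flips the signs of their pair differences (two-sided). Intervals of 95% came from the spread of a probe's own pairs. The fit was tested on simulated data.

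The pairing follows the study's design, in which the cultures of an experiment came from 1 lot of cells. Deviations from the group means correlated at 0.304 to 0.843 within pairs and at -0.353 to 0.363 between arrays of different numbers. Each of the 6 slides held 1 pair, and a slide was never split between the 4 scan batches. The 2 arrays of pair 3 carried other gene names for 3062 probes but the same names for the members.

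All 10 members are named. From each gene list, up to 4 genes with the largest difference among probes well above background on all 6 arrays of a group are named, and 10 genes (Myog) or 5 genes (other members) most like a member were found by Pearson r, of which the leading ones are given. The members, lists and tests were chosen with earlier results of these data known. Where a member has several probes, each is given by itself. Alternatives were the fit without the pair block or with the pair as a random effect, a 75th percentile shift, normexp background correction with an offset of 50, the deposited table, other filters on dim probes, and leaving out pairs. Promoter sequences and symbols came from RefSeq (GRCr8) and were matched by symbol, and probe positions are those of the files (rn4). Other tools were the R package data.table (version 1.17.8), Python 3.11.15, pandas 2.3.3 and matplotlib 3.10.9.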

Additional observations from a re-analysis of the deposited data

Results flagged for a closer look

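In 3 of 23 groups of member values, 1 array stood apart from the other arrays of its group, with a gap to the nearest of them larger than 0.625 of the group's range, the critical value at which chance sets apart about 5% of groups. The Myod1 signal of ACE 1 was 5.10, while the other ACE arrays read 1.35 to 1.45. The Myf5 probe 2 signal of control 4 was 6.81, against 1.40 to 3.28 on the other control arrays. The Pax7 signal of ACE 6 was 8.78, against 2.63 to 4.08 on the other ACE arrays. All 3 probes were short of well above background on several arrays and none of them was tested.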

How the results depend on the processing

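No setting brought a member past the adjusted threshold (0 of the member probes in each of them). Without the replicate block 0 member probes had an unadjusted limma p under 0.05, against 3 with it, and with the replicate as a random effect 5 probes of the array, none of them a member, passed the adjusted threshold. Leaving out 1 pair at a time gave 1 to 3 member probes with an unadjusted p under 0.05 (1 without replicate 1 or replicate 6) and 1 to 2 with the same direction in all pairs. The latter count was 2 with the 75th percentile shift, with normexp, with no filter on dim probes and without pairs 1 and 2. Of the 112 differences of single probes under these settings, 100 kept their direction and stayed short of the adjusted threshold, which no member passed in any setting. Among them were all those of Myog, Myf5 probe 1 and Pax3 probe 1, although their unadjusted p did cross 0.05. It was 0.192, 0.367 and 0.239 without the block, 0.0823 (Myog) and 0.0934 (Pax3 probe 1) without replicate 1, and 0.0578 and 0.0823 without replicate 6. For Pax3 probe 1 it was also 0.0892 without replicate 3 and 0.107 without pairs 1 and 2. The normexp correction reduced the Myog difference from -0.75 to -0.50 and that of Myf5 probe 1 from -0.23 to -0.15. The 12 that changed sign belonged to probes with differences near 0. Pax3 probe 2 was 0.0029 with the deposited values and -0.073 to 0.14 with 1 pair left out. Mef2a was 0.055 without pairs 1 and 2 and -0.075 to 0.087 with 1 pair left out. Mef2b was 0.022 with normexp, 0.0067 with the deposited values and -0.016 to 0.018 with 1 pair left out. Mef2d was -0.012 with normexp and -0.014 to 0.041 with 1 pair left out. The 75th percentile shift kept these signs, at -0.12 for Pax3 probe 2, -0.080 for Mef2a, -0.061 for Mef2b and 0.0011 for Mef2d. The cause of these changes was not tested. Signals near background limit what can be said of Myod1, Myf6, Pax7 and Myf5 probe 2.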
